A study of Mus musculus with 2 samples.

Results

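The 34 genes described here encode non-collagen proteins of the heart's extracellular matrix, the enzymes and inhibitors that act on that matrix, and 3 proteins used to recognise cardiac fibroblasts. They were taken as a list of names and matched by gene symbol, and all 34 were found among 55536 annotated genes. RNA came from the heart of male B6CASTF1/J mice, first-generation hybrids between C57BL/6J and CAST/EiJ, which were 18 to 20 months old and had no treatment named. There were 2 libraries of total RNA, called replicates 1 and 2, each from 300 ng with ERCC spike-ins (synthetic RNAs of known amount) and with ribosomal RNA reduced. Both libraries belong to 1 group, so no condition could be compared, and the comparison made was between the replicates. The labels give each library its own biosample entry but a single donor entry for both, and do not say whether that stands for 1 animal, a pool or the strain. Every p-value therefore sets the gap between these samples against counting error alone, and that gap may be technical. The part of the heart taken was not given in the labels.

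Fibroblasts lay down most of the interstitial matrix of the heart, a network of collagen fibrils, elastic fibres and proteoglycans that ties muscle cells together and passes on the force of contraction. Small leucine-rich proteoglycans control how collagen fibrils assemble, lysyl oxidases crosslink collagen and elastin, matricellular proteins signal from the matrix without building it, and matrix metalloproteinases cut it under the control of tissue inhibitors (TIMPs). Many of these genes are switched on further when fibroblasts are activated after injury or under pressure load.

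Replicate 1 had 39053830 expected counts and replicate 2 had 37447840. Of the counts of annotated genes, mitochondrial RNA took 29.3% and 34.4%. The 34 genes held 91058 and 77583 of these counts. Levels are given as TPM, a length-scaled abundance that sums to a fixed total and so allows genes to be compared. Differences between the libraries are given as log2 ratios of counts, replicate 2 over replicate 1, after TMM scaling (a library size from the bulk of genes). The scales need not move together, because TPM sums to a fixed total in each library while TMM is set by the bulk of genes. The part of the larger mitochondrial share of counts in replicate 2 was not tested. All 11 fibroblast markers checked were above 1 TPM in both libraries, among them Ddr2, a collagen receptor, at 8.92 and 7.84 TPM and Dpt, the matrix protein dermatopontin, at 34.7 and 30.9. The summed fibroblast markers stood at 313 TPM in replicate 1 and 274 in replicate 2, beside 35981 and 30188 for 8 cardiomyocyte markers. As shares of nuclear protein-coding TPM these were 0.0756% and 0.0766% for the fibroblast markers, and 8.68% and 8.43% for the cardiomyocyte markers. In bulk tissue, fewer cells of a type and less RNA per cell cannot be told apart.

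Together the 34 genes held 0.285% of the TPM of nuclear protein-coding genes in both libraries, 1180 TPM in replicate 1 and 1022 in replicate 2. The 7 genes at 50 TPM or more were Gsn, Dcn, Mgp, Sparc, Sparcl1, Bgn and Timp3, and 17 genes in all reached 10 TPM. At the other end, Tnc, Timp1 and Lox stayed under a mean of 1 TPM and were not tested. The order of the levels was nearly the same in both libraries, with a Spearman correlation of 0.99 over the 34 genes, which share their libraries and annotation.

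**Figure D1:**
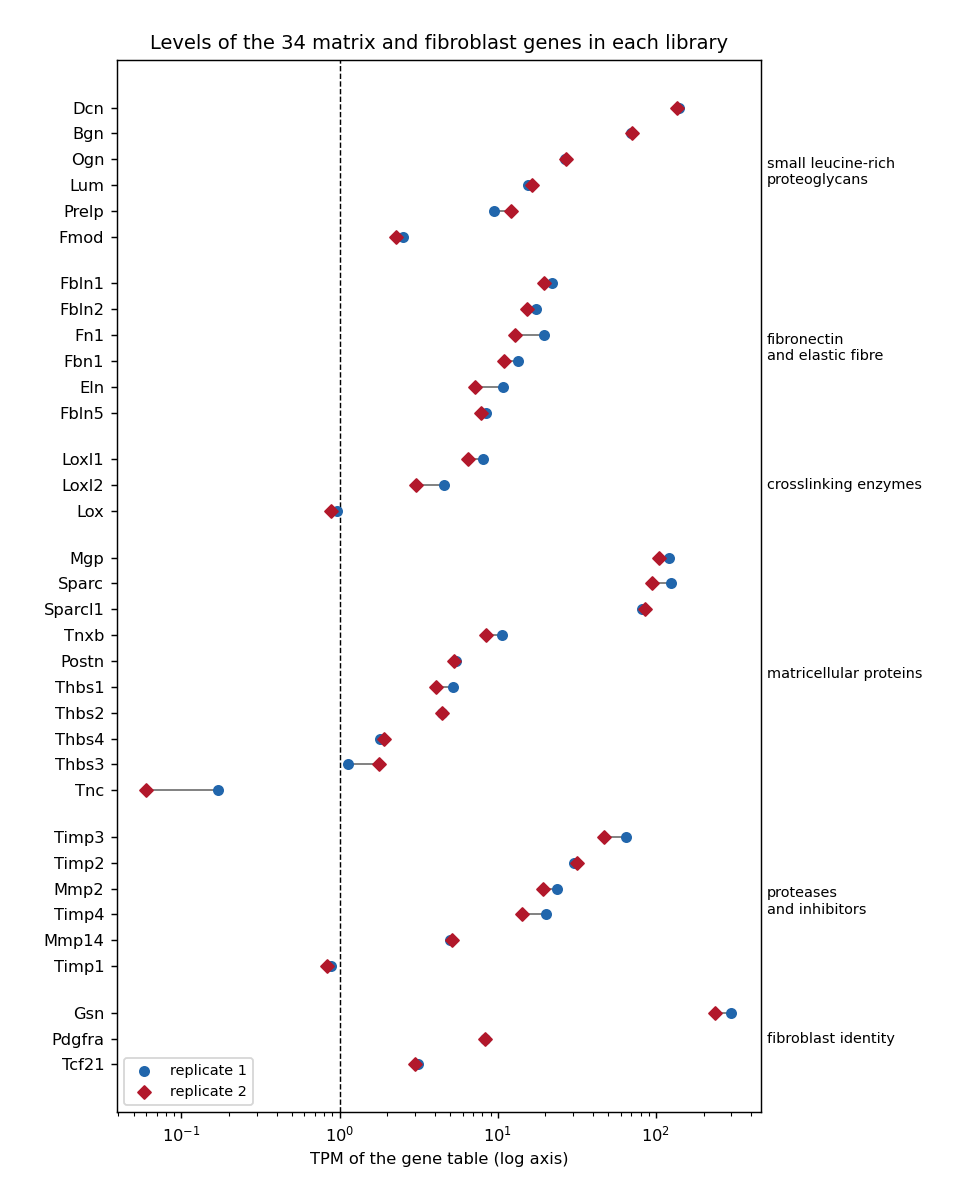
TPM of each of the 34 genes (log axis) in replicate 1 (circles) and replicate 2 (diamonds), grouped by role and ordered by mean level, with a dashed line at 1 TPM. Levels ran from Gsn at 299 and 235 TPM to Tnc at 0.17 and 0.06, and the largest gaps on this axis were those of Tnc and Thbs3, which rest on few counts.

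Of the 31 genes tested, 11 were lower and 7 higher in replicate 2 (exact binomial test on counts, two-sided, Benjamini-Hochberg adjusted over all 12189 genes tested). Over all genes tested, 15.9% were lower, 10.7% higher and 26.6% one or the other. Ratios below 0 were found for 16 of the 31 genes and for 54.6% of all. Calls were more frequent at high counts: where the mean was 500 counts or more, 22.9% were lower and 14.7% higher, and the 25 genes of the list in that range held all 11 lower and 7 higher calls. The test compares the libraries and not conditions. The median log2 ratio of the list was -0.01, beside -0.02 over all genes tested, and single ratios ran from -0.53 for Eln to 0.43 for Prelp. None of the 31 passed the test with a difference of at least 1.5-fold, which 2.28% of all genes did downward and 1.58% upward. The split depended on the scaling: it was 13 lower and 3 higher with total counts, and 8 lower and 10 higher with the summed spike-ins. No called gene changed sign under either.

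**Figure D2:**
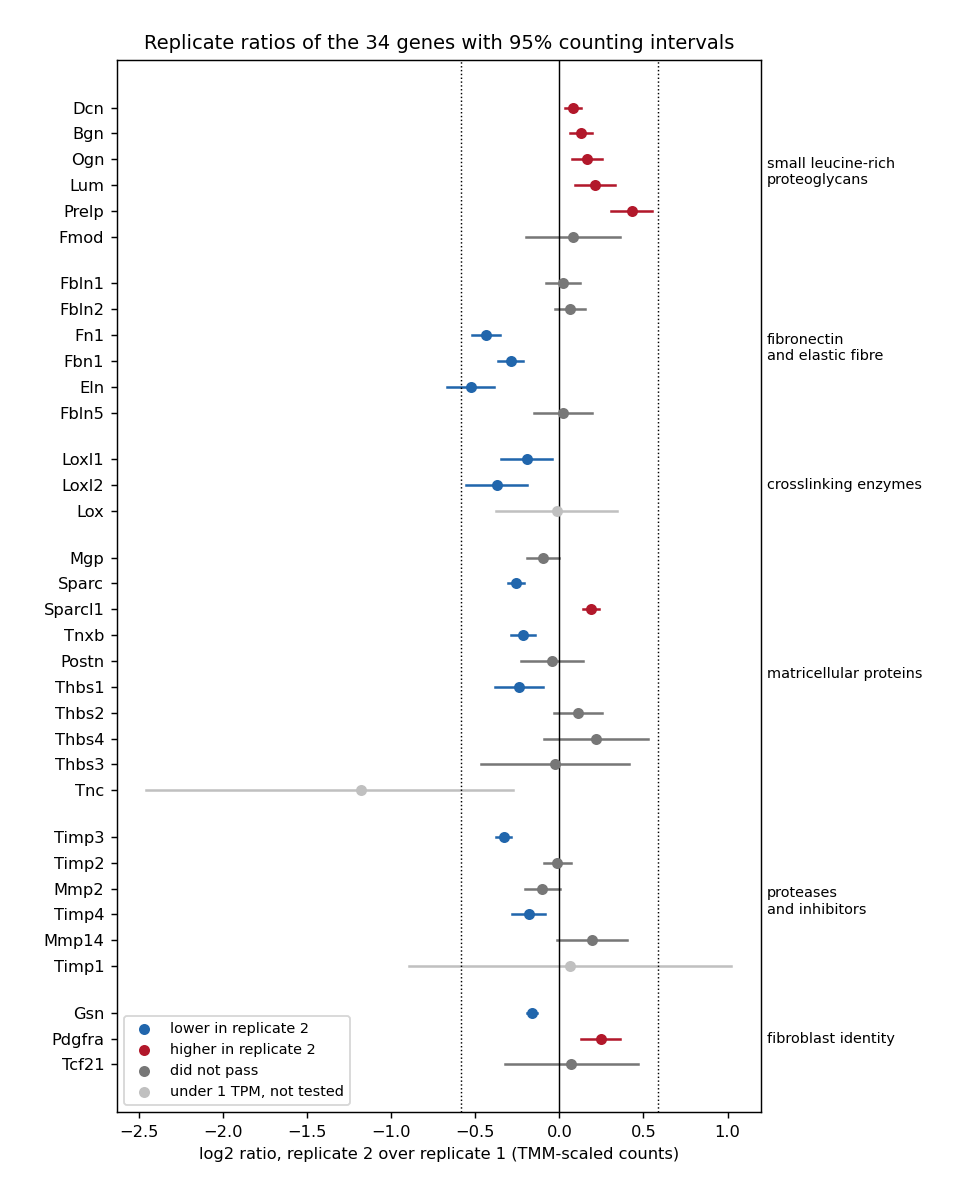
Log2 ratio of replicate 2 over replicate 1 for each gene with its 95% exact interval, which covers counting error only; dotted lines mark 1.5-fold. The 6 proteoglycans sit above 0, Fn1, Eln and Fbn1 below it, and Tnc, with 30 and 11 counts, has the widest interval on the low side.

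The small leucine-rich proteoglycans were led by Dcn, decorin, which binds collagen fibrils and transforming growth factor beta. Dcn (chr10:97479609-97518143) measured 139 TPM in replicate 1 and 135 in replicate 2. Bgn, biglycan, a close relative carried on the X chromosome (chrX:73483602-73495933), measured 70.0 and 70.9 TPM. For both genes the libraries lay close together on this scale. Ogn, osteoglycin or mimecan, had 26.4 and 27.1 TPM. Lum, lumican, which sets fibril diameter and lies next to Dcn on chromosome 10, had 15.5 and 16.5. The level of Prelp, a proteoglycan that anchors basement membranes to connective tissue, was 9.41 TPM in replicate 1 and 12.05 in replicate 2, so of the 6 it had the largest log2 ratio between the libraries. Fmod, fibromodulin, a regulator of fibril assembly best known from tendon, was the lowest at 2.50 and 2.28 TPM.

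As shares of the summed TPM of the 6 proteoglycans, Dcn held 52.1% ± 1.20 (SD, n = 2), Bgn 26.7% ± 0.162, Ogn 10.2% ± 0.163, Lum 6.06% ± 0.239, Prelp 4.07% ± 0.697 and Fmod 0.906% ± 0.0614. Neighbours in that order differed by more than the spread between libraries. Unscaled for length, Lum held 7.24% and 7.62% of the counts and Prelp 6.58% and 8.05%, so their order differed between the libraries.

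All 6 proteoglycans had ratios above 0, with a median of 0.15, and 5 of the 6 were higher in replicate 2 by the exact binomial test. Over all genes tested, 10.7% were higher and 54.6% had ratios below 0. At a mean of 500 counts or more, where the 5 called genes lie, 14.7% were higher. Prelp had a log2 ratio of 0.43 (95% interval 0.31 to 0.55, adjusted p = 2.6e-11). Lum followed with 0.21 (0.09 to 0.33, adjusted p = 0.0025, exact binomial test), then Ogn with 0.17, Bgn with 0.13 and Dcn with 0.08. The calls of Dcn, Lum, Bgn and Ogn were lost when total counts set the scale, at log2 ratios of 0.00, 0.14, 0.05 and 0.09, and that of Dcn also in the second transcript table, at 0.04. Fmod, with 219 and 211 counts, had a ratio of 0.08 and did not pass. Of 10 further proteoglycans of this class, only 3 reached 1 TPM. These were Aspn (asporin) at 6.82 and 6.47 TPM, Podn (podocan) at 6.32 and 4.72 and Ecm2 at 5.32 and 4.92. Podn was lower in replicate 2 with a log2 ratio of -0.33, and Aspn and Ecm2 did not pass, at 0.05 and 0.00.

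For the 3 called proteoglycans with a RefSeq entry, the 250 bases before the start site are shown as a description. They are read 5′ to 3′ on the gene's strand from RefSeq on GRCm38.p6, with matches to 4 motifs in capitals. The motifs were a TATA box (TATAAA), a GC box (GGGCGG), an AP-1 site (TGAGTCA) and a TEAD site (CATTCC), each sought on both strands.
Bgn, chrX:73483351-73483600: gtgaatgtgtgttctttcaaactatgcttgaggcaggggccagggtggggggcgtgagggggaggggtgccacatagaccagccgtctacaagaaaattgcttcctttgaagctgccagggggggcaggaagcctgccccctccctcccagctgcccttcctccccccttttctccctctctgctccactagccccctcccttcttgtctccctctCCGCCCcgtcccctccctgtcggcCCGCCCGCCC
Ogn, chr13:49607765-49608014: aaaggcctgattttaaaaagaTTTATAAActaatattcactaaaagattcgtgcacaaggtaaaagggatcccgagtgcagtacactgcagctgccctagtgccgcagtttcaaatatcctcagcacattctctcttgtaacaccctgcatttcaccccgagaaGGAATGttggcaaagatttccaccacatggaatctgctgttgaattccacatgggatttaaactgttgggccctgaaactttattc
Prelp, chr1:133921402-133921651 (minus strand): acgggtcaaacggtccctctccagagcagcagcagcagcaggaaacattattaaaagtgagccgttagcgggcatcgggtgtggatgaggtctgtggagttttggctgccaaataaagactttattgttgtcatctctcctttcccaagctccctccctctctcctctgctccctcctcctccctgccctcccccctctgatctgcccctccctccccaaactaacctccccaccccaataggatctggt
The Bgn window held 3 GC box matches, starting 34, 10 and 6 bases before the start, of which the last pair overlap. That of Ogn held a TATA box match on each strand, overlapping at 229 and 227 bases before the start, and a TEAD match at 86, while that of Prelp held none of the 4. The window of Fmod, which did not pass, also held none and is not shown. In all, 23 of the 34 genes had 29 windows: 55.2% of these held a GC box match against 32.7% of 32851 windows of all genes, 17.2% against 12.4% a TATA box, 10.3% against 12.6% a TEAD match and 3.45% against 4.46% an AP-1 match. A match is a description of the letters only.

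**Figure D3:**
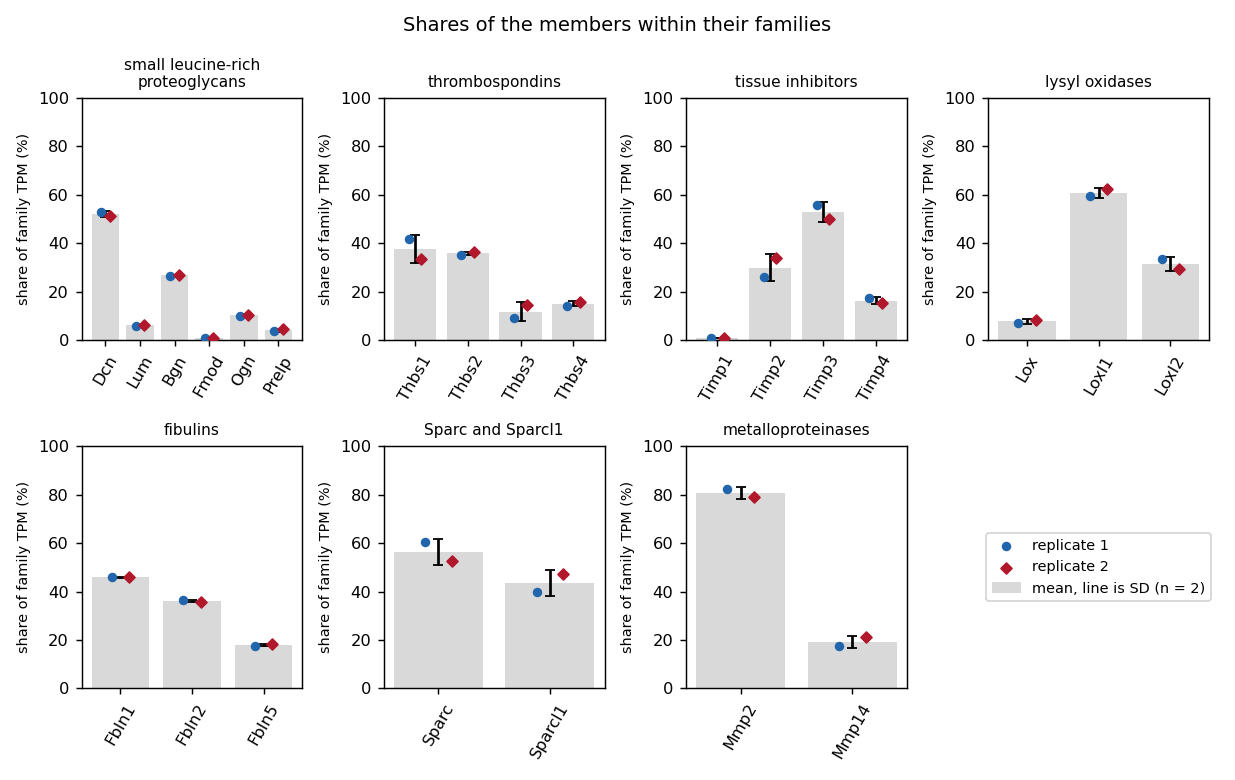
Share of each gene in the summed TPM of its family, with circles for replicate 1, diamonds for replicate 2, bars for the mean and lines for the SD of the 2 libraries. Dcn holds 52.1% of the proteoglycans, Loxl1 60.9% of the lysyl oxidases and Timp3 52.9% of the tissue inhibitors, while Timp1 holds 0.822%.

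Among the 31 tested genes, the lowest ratios were those of elastin and fibronectin. Fn1 (chr1:71585520-71653200), fibronectin, the adhesive glycoprotein on which other matrix assembles, measured 19.5 TPM in replicate 1 and 12.9 in replicate 2. Eln (chr5:134702593-134747323), elastin, the rubber-like core of elastic fibres, measured 10.8 and 7.21 TPM. The level of Fbn1, fibrillin-1, the main protein of the microfibrils around elastin, was 13.5 TPM and 10.9. All 3 were lower in replicate 2 on either scale. Their log2 ratios were -0.44 for Fn1 (95% interval -0.52 to -0.35, adjusted p = 5.8e-25), -0.53 for Eln (-0.67 to -0.39, adjusted p = 6.1e-13) and -0.29 for Fbn1 (-0.36 to -0.22, adjusted p = 2.4e-13), all by the exact binomial test. The ratio of Eln was lower than those of all but 3.39% of the genes tested, and that of Fn1 lower than all but 4.87%.

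The fibulins, glycoproteins that link elastic fibres and basement membranes, did not pass. Fbln1 had 22.0 and 19.7 TPM, Fbln2 17.3 and 15.4, and Fbln5, needed for elastic fibre assembly, 8.37 and 7.85. Their log2 ratios were 0.02, 0.06 and 0.02, with 95% intervals of -0.08 to 0.12, -0.03 to 0.15 and -0.15 to 0.19. Within the family Fbln1 held 46.0% ± 0.160 of the TPM, Fbln2 36.1% ± 0.365 and Fbln5 17.9% ± 0.525 (SD, n = 2). By counts, which favour long transcripts, Fbln2 led with 48.0% and Fbln1 had 38.6%. With the spike-ins as scale Fbln2 passed as higher, at a log2 ratio of 0.16.

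Of 14 other elastic fibre genes, 10 reached 1 TPM, of which 4 were lower and none higher in replicate 2. The median log2 ratio of the 10 was -0.22. The shares over all genes tested were 15.9% lower and 10.7% higher. Emilin2, an elastin-associated glycoprotein, fell most, from 15.3 to 9.02 TPM with a ratio of -0.83. Ltbp4 and Ltbp1, which hold latent transforming growth factor beta on microfibrils, were lower with ratios of -0.16 and -0.29, and Mfap5, a microfibril protein, with -0.39. Ltbp3 and Efemp1 did not pass, at -0.06 and 0.13.

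Alternative exons give fibronectin forms that differ between plasma and tissue. The EDA and EDB exons (extra domains A and B) mark cellular fibronectin and are known from embryonic and wounded tissue. Their inclusion was computed from transcript TPM. It is the share with the exon among transcripts that include or skip it between the same flanking splice sites. Those transcripts are called spanning here. The exon taken for EDA is 270 bases long (chr1:71603660-71603929, minus strand, coding) and that for EDB 273 bases (chr1:71613763-71614035, minus strand, coding), in GENCODE M21 on mm10. The junctions that tell the forms apart are shown as 15 bases of the exon before in lower case and 15 of the next exon in capitals, read from the GENCODE transcripts.
Fn1 EDA included: aaactgcagtgaccaACATTGATCGCCCTA
Fn1 EDA skipped: aaactgcagtgaccaCCATTCCTGCGCCCA
Fn1 EDB included: ataccgttgtcccagAGGTGCCCCAGCTCA
Fn1 EDB skipped: ataccgttgtcccagCTGTCCCTCCTCCCA
EDA inclusion was 20.2% in replicate 1 and 19.6% in replicate 2 in the first transcript table, and 19.9% and 18.6% in the second. EDB inclusion was 4.53% and 2.18% in the first table, against 3.0% and 1.53% in the second. EDA was thus included in about the same share in both libraries and both tables, and EDB was the rarer exon in all 4 estimates. The only transcript with EDB, Fn1-201, stood at 0.54 TPM (deposited interval 0.211 to 1.04) and 0.18 (0.031 to 0.568), and these intervals overlap. These are estimates from annotated transcripts and not counts of junction reads. Short Fn1 transcripts that do not span the exons took part of the gene's TPM: Fn1-208 led in the first table with 21.3% of the TPM, and Fn1-204, an intron-retaining transcript, in the second with 41.9%.

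A coding exon of 141 bases in Fbln2 (chr6:91259630-91259770) was included in 72.0% of spanning transcripts in replicate 1 and 59.9% in replicate 2, with 70.6% and 57.9% in the second table.
Fbln2 exon included: gtgtgtcctgtgaagACCAAGACGAGTGTT
Fbln2 exon skipped: gtgtgtcctgtgaagACATCAATGAGTGTG
Both tables gave the lower share in replicate 2. Fbln2-201, with the exon, stood at 9.97 and 8.04 TPM, and Fbln2-202, without it, stood at 3.55 (deposited interval 2.07 to 4.65) and 5.23 (3.84 to 6.27). The intervals of Fbln2-202 in the 2 libraries overlap, and the difference in inclusion was not tested. Of the 2 coding transcripts of Fbln1, which end in different exons, Fbln1-202 held 76.9% and 69.9% of the gene's TPM and Fbln1-201 23.1% and 30.1%.

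The crosslinking enzymes were present at low levels. Loxl1, which acts mainly on elastin, had 8.12 TPM in replicate 1 and 6.50 in replicate 2. Loxl2, known for crosslinking collagen in fibrosis, had 4.57 and 3.06. Lox, the founding lysyl oxidase, stood at 0.97 and 0.88 TPM on 138 and 124 counts. Loxl1 thus held 60.9% ± 1.99 of the family's TPM, Loxl2 31.4% ± 2.93 and Lox 7.77% ± 0.939 (SD, n = 2). Loxl2 was lower in replicate 2 with a log2 ratio of -0.37 (95% interval -0.56 to -0.19, adjusted p = 3.6e-04, exact binomial test). Loxl1 passed only just, at -0.19 with an adjusted p of 0.046 in the same exact test. The settings in which its call was lost included spike-in scaling (-0.10), the totals of nuclear protein-coding genes (-0.14) and the second table (-0.18). Among 13 tested genes of a further list for collagen modification and crosslinking, 7 were lower and none higher. The median ratio of the 13 was -0.17. Of all genes tested, 15.9% were lower and 10.7% higher. Serpinh1, the collagen chaperone HSP47, fell from 118 to 78.6 TPM (ratio -0.44), P4ha1, a prolyl hydroxylase subunit, from 32.1 to 19.0 (-0.58), and Tgm2, tissue transglutaminase, from 99.4 to 74.6 (-0.22).

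The matricellular proteins spanned the widest range of levels on a log scale. Sparc (chr11:55394500-55423183), osteonectin, which binds collagen and is needed for its deposition, had 124 TPM in replicate 1 and 94.3 in replicate 2. Its relative Sparcl1, hevin (chr5:104079111-104113733), had 81.6 and 84.8. The pair moved in opposite directions: Sparc was lower with a log2 ratio of -0.26 (95% interval -0.31 to -0.21, adjusted p = 4.3e-24), and Sparcl1 higher with 0.19 (0.14 to 0.24, adjusted p = 1.2e-12, exact binomial tests). Sparc therefore took 60.3% of the pair's TPM in replicate 1 and 52.6% in replicate 2. Both calls stood under each of the scalings tried and in the second table.

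Mgp, matrix Gla protein, an inhibitor of calcification, had the mean level next below Gsn and Dcn, with 121 and 104 TPM, though Sparc was above it in replicate 1 (chr6:136872435-136875823). Its log2 ratio of -0.09 did not pass (95% interval -0.19 to 0.00), but it passed as lower with total counts (-0.17) and in the second table (-0.25), where its levels were 163 and 133 TPM. Mgp has the shortest transcript length of the list, averaged over the transcripts of each gene, at 617 bases in replicate 1.

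Tnxb, tenascin-X, which stabilises collagen networks in skin and muscle, had 10.7 and 8.44 TPM and was lower with a ratio of -0.21 (adjusted p = 1.8e-08, exact binomial test). Tnc, tenascin-C, a marker of wound and embryonic matrix, was near the limit of detection with 0.17 and 0.06 TPM on 30 and 11 counts. Postn, periostin, the textbook product of activated heart fibroblasts, had 5.45 and 5.28 TPM with a ratio of -0.04, which did not pass. Outside the list, Fap, fibroblast activation protein, was low too, with 0.87 and 1.57 TPM, and was higher in replicate 2 with a ratio of 0.88 on 67 and 114 counts.

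The thrombospondins, large glycoproteins that bind cells, proteases and growth factors, were all below 6 TPM. Thbs1, an activator of latent transforming growth factor beta, had 5.25 and 4.07 TPM. Thbs2, its close relative, had 4.46 and 4.41. Thbs1 was lower with a ratio of -0.24 (adjusted p = 0.005, exact binomial test), a call lost with spike-in scaling (-0.14), while Thbs2 did not pass at 0.11 (95% interval -0.03 to 0.25) but was higher with spike-in scaling (0.20). Thbs4, known from stretched heart and tendon, stood at 1.80 and 1.92 TPM with a ratio of 0.22 that did not pass. Thbs3 had 1.13 and 1.77 TPM on 94 and 84 counts, with a ratio of -0.02. In the second table it had 2.88 and 2.27 TPM, so the order of the libraries turned round. Exons of Thbs3 share 318 bases with Mtx1 on the opposite strand, a gene at 24.8 and 25.5 TPM, and whether the counting used strand was not given in the sources used here, so the level of Thbs3 is uncertain. Thbs1 and Thbs2 held 37.5% ± 5.72 and 35.8% ± 0.673 of the family's TPM (SD, n = 2), a difference within the spread.

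Periostin and tenascin-X also had coding exons that annotated transcripts include or skip. In Tnxb an exon of 369 bases (chr17:34681954-34682322) was included in 76.9% of spanning TPM in replicate 1 and 76.3% in replicate 2, and in 84.5% and 88.4% in the second table.
Tnxb exon included: tcagggcgaatacagGGTCCTTACCCTCTG
Tnxb exon skipped: tcagggcgaatacagACAGGGCTCAGGAAC
The libraries were closer to each other than the tables were. In Postn, an exon of 81 bases (chr3:54380412-54380492) was included in 16.2% and 32.7% of spanning TPM, with 17.3% and 37.6% in the second table.
Postn 81-base exon included: ccatgactgtctataCAACTAAAATTATAA
Postn 81-base exon skipped: ccatgactgtctataGACCTGCAATGACGA
Both tables gave the higher share in replicate 2, but few counts lie behind it, 509 and 449 for the whole gene. Postn-204, which skips that exon, had 2.52 TPM (deposited interval 1.54 to 3.40) in replicate 1 and 0.87 (0.00 to 1.72) in replicate 2, and these intervals overlap. An exon of 84 bases in the same gene (chr3:54385671-54385754) was included in 36.1% and 43.2%, and in 29.4% and 38.7% in the second table. A further Postn exon of 78 bases was at 100% and 84.4%, then 100% and 98.1% in the second table, and an Fn1 exon of 106 bases was at 0 except for 6.90% in replicate 2 of the first table. For these exons, transcripts with other flanking splice sites, such as Postn-201 and Fn1-203, were not counted. The values are therefore not shares of all transcripts across the exon.

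**Figure D4:**
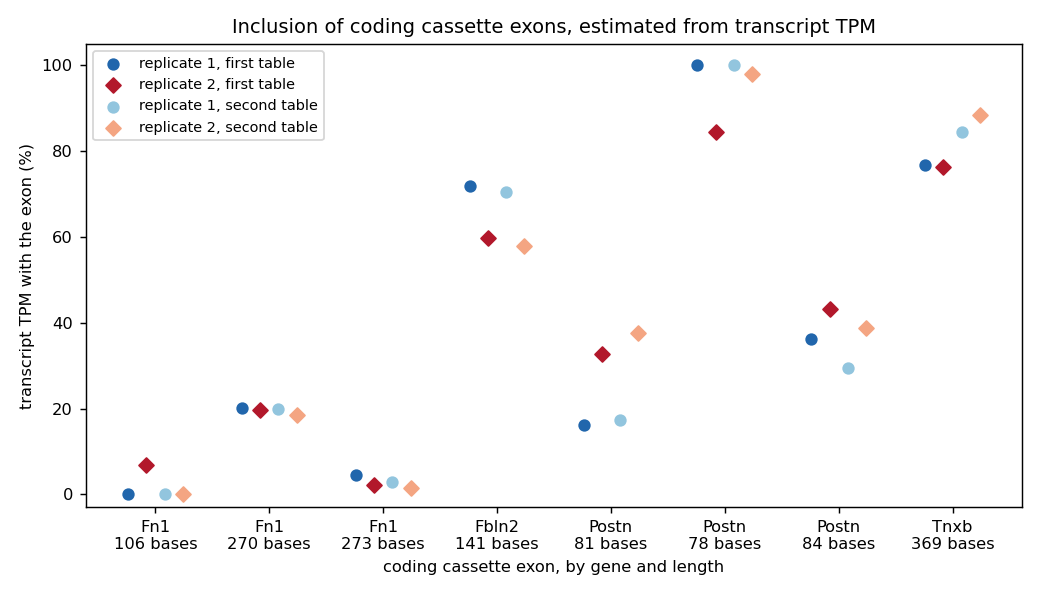
Share of spanning transcript TPM that includes each coding cassette exon, by gene and exon length, for both libraries in the first table (dark) and the second table (light). The 270-base EDA exon of Fn1 lies between 18.6% and 20.2% in all 4 estimates, while the 81-base exon of Postn ranges from 16.2% to 37.6%.

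The tissue inhibitors outweighed the metalloproteinases of the list. Timp3 (chr10:86300372-86349506), the inhibitor that stays bound to the matrix, had 64.8 TPM in replicate 1 and 47.0 in replicate 2. Timp2, which also helps to activate Mmp2, had 30.2 and 31.7. Timp4, the inhibitor most typical of heart, had 20.2 and 14.2. Timp1, the inducible inhibitor, stood at 0.88 and 0.83 TPM on 21 and 20 counts. Shares of the 4 by TPM were 52.9% ± 4.02 for Timp3, 29.9% ± 5.53 for Timp2, 16.3% ± 1.60 for Timp4 and 0.822% ± 0.0903 for Timp1 (SD, n = 2).

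Timp3 was lower in replicate 2 with a log2 ratio of -0.33 (95% interval -0.38 to -0.29, adjusted p = 4.0e-44), the smallest p of the list by the exact binomial test. Timp4 was lower with -0.18 (-0.28 to -0.08, adjusted p = 0.0016, exact binomial test), a call lost with spike-in scaling (-0.09). Timp2 did not pass, at -0.01 (-0.09 to 0.07). The level of Timp2 was the only one of the 34 that differed by over 1.5-fold between the tables in both libraries, at 50.6 and 50.4 TPM in the second. The short transcript Timp2-202 of 718 bases held 28.5% of the gene's TPM in the first table, against 53.4% in the second. Timp3 shares 1733 exon bases with Syn3 on the opposite strand, which had 0.08 and 0.03 TPM, and Timp4 shares 90 with Syn2, at 2.20 and 2.38.

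Mmp2, gelatinase A, which cuts denatured collagen and is made by fibroblasts without induction, had 23.7 TPM in replicate 1 and 19.3 in replicate 2. Mmp14, the membrane-bound protease that activates Mmp2, had 5.01 and 5.14. Mmp2 did not pass at a log2 ratio of -0.10 (95% interval -0.21 to 0.00), though it passed as lower with total counts (-0.18) and in the second table (-0.13). Mmp14 did not pass at 0.19 (-0.02 to 0.40) but was higher with spike-in scaling (0.29). The 4 inhibitors together had 4.05 times the TPM of the 2 proteases in replicate 1 and 3.84 times in replicate 2, and 5.11 and 5.01 times in the second table. Of 12 tested genes of other metalloproteinases, 4 were lower and 1 higher, beside 15.9% and 10.7% of all genes tested. Adamts1, which cuts versican, fell from 14.9 to 8.15 TPM (ratio -0.74), Mmp15, a membrane-bound protease, from 27.1 to 22.0 (-0.18), and Adamts5, an aggrecan-cutting protease, was higher at 0.29.

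The fibroblast identity genes split. Pdgfra (chr5:75152292-75198215), the growth factor receptor that marks resident heart fibroblasts, had 8.27 TPM in replicate 1 and 8.25 in replicate 2. Tcf21, the transcription factor needed to form cardiac fibroblasts, had 3.11 and 3.0. Gsn (chr2:35256380-35307892), gelsolin, which severs actin filaments, had 299 and 235 TPM and was the highest of the 34. Muscle, endothelial or mural cells are also known to express Gsn strongly, so its level need not come from fibroblasts. Pdgfra was higher in replicate 2 with a log2 ratio of 0.25 (95% interval 0.13 to 0.36, adjusted p = 2.5e-04). Gsn was lower with -0.16 (-0.19 to -0.14, adjusted p = 3.1e-28, exact binomial tests for both). Tcf21, on 113 and 108 counts, had 0.07 (-0.32 to 0.47) and did not pass. Transcript Gsn-201 held 92.01% and 96.5% of the gene's TPM in the first table, with a mean of 80.5% in the second. Of 17 tested genes of other fibroblast markers, 5 were lower and 1 higher, beside 15.9% and 10.7% of all genes tested. The median ratio of the 17 was -0.10. Gas1, a growth arrest protein, fell from 9.64 to 6.39 TPM (-0.46), Ly6a, the surface antigen Sca-1, from 70.2 to 49.4 (-0.38), and Medag was higher at 0.32.

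Neighbouring gene lists show where the 34 genes stood. As background to the calls, 15.9% of all genes tested were lower and 10.7% higher. At a mean of 500 counts or more these shares were 22.9% and 14.7%. Of 19 tested collagens, 10 were lower and 1 higher in replicate 2, with a median log2 ratio of -0.21. Col3a1 and Col1a2, fibrillar collagens of fibroblasts, were lower with ratios of -0.56 and -0.47, and Col4a1, a basement membrane collagen, with -0.30. Col8a1, a short-chain collagen, was higher at 0.37. Of 10 basement membrane genes, 7 were lower and none higher, with a median of -0.18: Hspg2, perlecan, had -0.26 and Lamb2, a laminin chain, -0.18. None of 17 genes of the TGF-beta and PDGF pathways was lower and 1 was higher, Tgfb2 at 0.51, with a median of 0.06. The 34 genes thus held calls in both directions, with 5 proteoglycans, Sparcl1 and Pdgfra higher and Fn1, Eln, Fbn1, Sparc and Timp3 among the lower ones. No test was made of the difference between these lists. Of 11 other matricellular and activation genes, 2 were lower and 3 higher: Ccn2, connective tissue growth factor, fell from 48.3 to 32.5 TPM (-0.46), while Ccn1 was higher at 0.22.

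**Figure D5:**
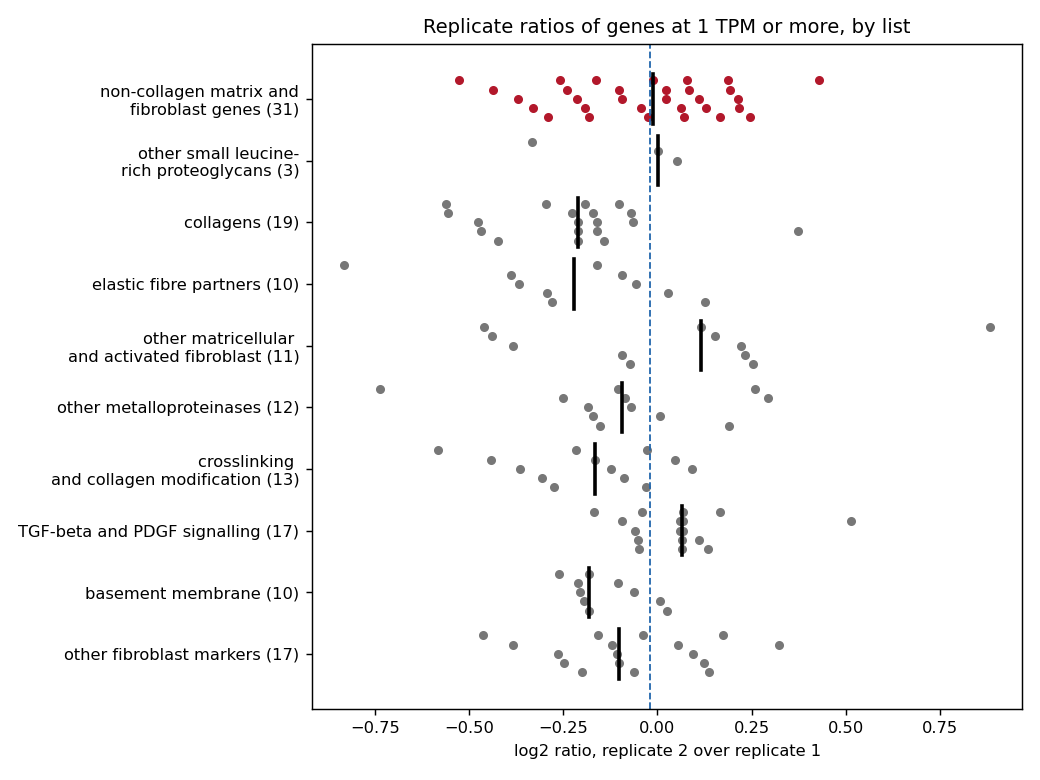
Log2 ratios of genes at a mean TPM of 1 or more, 1 point per gene, for the 31 tested genes and 9 neighbouring lists, with the number tested in brackets; black bars are list medians and the dashed line the median of all genes tested, -0.02. The collagens have a median of -0.21 and the basement membrane genes -0.18, while the 31 genes spread on both sides of 0.

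Transcript length, averaged over the transcripts of each gene, and ratio were set side by side as a description, with no test. The 5 tested genes of the list with such a length of at least 5000 bases in replicate 1 (Fn1, Fbn1, Tnxb, Thbs1 and Thbs2) had a median log2 ratio of -0.24, beside 0.02 for 1120 protein-coding genes of that length. The 11 genes between 3000 and 5000 bases had a median of -0.04, beside 0.01, the 11 between 2000 and 3000 bases 0.02, beside -0.01, and the 3 between 1000 and 2000 bases 0.08, beside -0.05. Mgp, the only one under 1000 bases, had -0.09, beside -0.11. From 1000 bases up the medians of the list fell with length, while those of all protein-coding genes rose. Mgp alone did not follow the order of the list. Across genes, Spearman's rho of length and ratio was -0.30 over the 31 genes and 0.18 over 11116 protein-coding genes, which share libraries and scaling and are not replicates.

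Markers of other cells moved between the libraries as well. Beside the calls below, 15.9% of all genes tested were lower and 10.7% higher. All 5 atrial markers were lower in replicate 2, summing to 1371 and 814 TPM with a median log2 ratio of -0.44, and Bmp10, a growth factor of atrial muscle, fell from 18.5 to 1.55 TPM. All 6 tested white adipocyte markers were lower, with 71.3 and 14.0 TPM for the list of 7 and a median ratio of -2.22. Macrophage markers were lower in 6 of 8, with 140 and 102 TPM and a median of -0.32, endocardial markers in 3 of 5, with 61.7 and 48.0 TPM. Endothelial markers were higher in 4 and lower in 2 of 8, at 513 and 477 TPM, or 0.124% and 0.133% of nuclear protein-coding TPM. Smooth muscle markers had 1 of 5 higher and pericyte markers 1 of 6 lower, and none of 6 tested epicardial markers passed the exact test (14.8 and 15.3 TPM). Nor did the platelet (3 tested), valve (2 tested) or Schwann cell (1 tested) markers. None of these markers was at 0 in both libraries. Fibroblast markers, some of which belong to the 34 genes or the collagens, were lower in 4 and higher in 3 of 11. The part of these cell types in the ratios of the 34 genes was not tested. Without the 8 genes that muscle, endothelial or mural cells are also known to express strongly (Sparc, Sparcl1, Mgp, Timp3, Timp4, Gsn, Bgn and Thbs1), 6 of 23 genes were lower and 5 higher.

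Both tables told largely the same about the list. Of the 18 calls, 16 stood in the same direction in the second transcript table, with Dcn and Loxl1 lost, and the ratios of the 31 genes had a rank correlation of 0.97 between tables made from the same reads. Of 24 genes at 5 TPM or more, 22 had a leading transcript with over 50% of the TPM, and in 9 it held over 90%. The leading transcript was the same in both tables for 20 of the 24 and differed for Fn1, Sparc, Postn and Timp2. The 20 include Dcn, for which Dcn-201 and Dcn-202 tied for the lead in the second table. Dcn shows a limit of such estimates: Dcn-201 and Dcn-202 share 89.3% of their 100-base stretches and were split 65.2% to 34.3% in the first table, but evenly in the other.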

How the data were processed

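Levels and counts were read from 1 gene table and 2 transcript tables per library. The deposited gene table and first transcript table held expected counts, TPM and isoform percent, made from alignments to the transcriptome on mm10 with GENCODE M21 per the deposited file list. Values of the other transcript table, called the second here, are estimated counts and TPM, also as deposited, and were summed per gene. The sources used here do not name the tools. Reads of both parental alleles were quantified against the reference annotation. Deposited bounds of transcript TPM are printed as deposited, with a level not given.

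The members, lists and tests were chosen with earlier results of these data known. All 34 members are named, and of each other list up to 4 genes of highest TPM and those of lowest and highest ratio. Mfap5 and Ddr2 were added after their values were seen, as was the computation of exon inclusion under the alternatives. Spike-ins, phiX and entries named only by number (1.94 and 1 counts) were left out. Expected counts were rounded. Log2 ratios used edgeR 4.0.16 TMM library sizes in R 4.3.3 and a prior count of 2. An exact conditional binomial test was run on every gene whose mean TPM reached 1, with a threshold of 0.05 on the adjusted p. It was tried on data simulated with counting error alone, which the test assumes. That trial cannot show how the test handles any further spread between libraries. Ratio intervals are 95% Clopper-Pearson and cover counting error only. Alternatives were other scalings (total counts, spike-ins, DESeq2 1.42.0 size factors, nuclear protein-coding totals), filters, prior count, the second table and each library alone.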

Additional observations from a re-analysis of the deposited data

How the results depend on the processing

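The main split was 11 lower and 7 higher of 31. Total counts as scale gave 13 lower and 3 higher, spike-ins 8 and 10, totals of nuclear protein-coding genes 10 and 8, and DESeq2 size factors 11 and 7. Without a filter on TPM it was 10 and 7 of 34, and with the second table summed per gene 12 and 6 of 33. A change of scaling shifts the ratios of all genes alike, and shares over all genes are given for the main setting only. These splits are therefore not a property of the list alone. Requiring 1.5-fold as well left 0 lower and 0 higher, and leaving out the 8 genes that other cell types also express left 6 lower. The share of TPM held by the list, 0.285%, was 0.257% in the second table and 0.111% of the TPM of all nuclear and mitochondrial genes, and 0.285% in either library alone. The median ratio ran from -0.09 with total counts to 0.08 with spike-ins, following the median of all genes (-0.10 and 0.08). Of the single ratios, 31 of 31 kept their side of the threshold with DESeq2 size factors and with a prior count of 0.5, 25 with total counts and 25 with spike-ins, and no called ratio changed sign in any setting. Of 34 levels, 18 moved in the second table by more than the SD of the libraries. No paired analysis was possible because there is only 1 group. Depth limits Tnc, Timp1, Thbs3 and Tcf21, whose intervals are the widest, and the spread between animals could not be estimated.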
